A study of Homo sapiens with 12 samples.

Results

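The genes described here are 38 genes of glycolysis and of the response to low oxygen, chosen as a list of symbols that covers glucose uptake, the glycolytic enzymes, the handling of pyruvate and lactate, widely used hypoxia-induced genes, an oxygen-sensing enzyme pair and the HIF factors themselves. All 38 were found among the 60671 genes of the count table, and 37 of them passed the expression filter that left 13236 genes for testing. The exception was EGLN3, with 0 to 6 counts in any library. They were measured by poly(A) RNA sequencing in BJ-5ta cells, which are human foreskin fibroblasts immortalized with telomerase (hTERT). Wild-type cells and ΔLEO1 cells, a single CRISPR-Cas9 clone in which the first exons of LEO1 were targeted (so the clone and the deletion cannot be told apart), were grown in 10% serum or kept for 10 days in 0.1% serum, a treatment that makes fibroblasts leave the cell cycle. Each of the 4 groups had 3 libraries, numbered 1 to 3 (wild type, 10% serum), 4 to 6 (ΔLEO1, 10%), 7 to 9 (wild type, 0.1%) and 10 to 12 (ΔLEO1, 0.1%), and ERCC spike-in RNA was added to every sample.

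Glycolysis converts glucose to pyruvate, which is either oxidized in mitochondria or reduced to lactate and exported. Growing fibroblasts in culture run glycolysis at a high rate even with oxygen present, because its intermediates feed nucleotide, lipid and amino acid synthesis. When oxygen is low, prolyl hydroxylases such as EGLN1 and EGLN3 no longer mark HIF-1α and HIF-2α (genes HIF1A and EPAS1) for destruction. These factors then switch on glucose transporters, glycolytic enzymes, PDK1, which blocks pyruvate oxidation, and genes for acid handling, mitophagy and blood vessel growth. HIF activity is set mainly at the protein level, which RNA sequencing does not measure. LEO1 is a subunit of the PAF1 complex, which travels with RNA polymerase II during elongation.

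The libraries held 26240632 to 45315560 gene counts. ERCC reads made up 0.625 to 3.24% of each library, and all 0.1% serum libraries except library 12 (1.09%) had a higher ERCC share than any 10% serum library. LEO1 itself was at 19.9 to 29.3 CPM in the wild-type libraries and 0.675 to 1.42 CPM in the ΔLEO1 libraries. The 10 fibroblast markers examined were abundant in every library, with a summed level of at least 67968 CPM, whereas 14 markers of epithelial, endothelial, blood, pigment and muscle cells summed to 2.28 to 2.80 CPM in wild-type and 4.17 to 9.07 CPM in ΔLEO1 libraries. MYOD1 was at 0 in all libraries. In 5 of the 6 ΔLEO1 libraries (all but library 6) PTPRC, a leukocyte gene, made up most of that sum, at 1.42 to 7.25 CPM in ΔLEO1 and at most 0.613 CPM in wild type, while the T cell marker CD3E had at most 1 count. The part of these markers in the genotype differences was not tested. The highest-numbered library of each group (3, 6, 9 and 12) stood apart from the other 2, with a chi-square per gene of 66.2 to 144 against them, compared with 3.04 to 12.1 between the other 2. Fits without these libraries keep only the 2 similar ones of each group, so their calls carry less of this spread. The labels do not say whether the libraries came from separate cultures, so the p-values below measure the spread between these libraries, which may be technical.

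Values are given on 2 scales. On the ERCC scale, gene counts were divided by the spike-in reads, so a change is a change in transcript per amount of spike-in. On the TMM scale of the genes, the typical gene is set to no change, so a change is a shift relative to other genes, and levels are given as CPM (read counts scaled to library size with TMM factors). The ERCC scale moved the median tested gene by -0.97 (log2) with low serum in wild-type cells and by -1.05 in ΔLEO1 cells. It moved the median by 0.35 for ΔLEO1 against wild type in 10% serum and by 0.27 in 0.1% serum. Without the highest-numbered library of each group these medians were -1.03, -1.72, 0.26 and -0.42, so that for ΔLEO1 against wild type in 0.1% serum the sign turned. In bulk RNA, fewer expressing cells, less RNA per cell and less input RNA per amount of spike-in cannot be told apart. The study's methods give a range of starting RNA amounts and do not say that the spike-in was matched to cell number. A gene is said to rise, fall or be called when the edgeR likelihood ratio test gave a Benjamini-Hochberg adjusted p below 0.05 over all tested genes. Fold changes are log2 values, written with their standard error (SE).

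In growing wild-type cells 1 isoform dominated at the lactate dehydrogenase and enolase steps, while phosphofructokinase was shared among isoforms. In 10% serum, GAPDH, which oxidizes glyceraldehyde 3-phosphate, reached 6657 ± 469 TPM (a level per exon length, mean ± SD, n = 3). LDHA, the lactate dehydrogenase subunit that favours lactate formation, was at 1828 ± 147 TPM, while LDHB, the heart-type subunit, was at 32.2 ± 0.861 TPM. ENO1, the general enolase, was at 1207 ± 24.6 TPM and ENO2, the neuronal form, at 39.0 ± 10.8 TPM. Of the phosphofructokinases, PFKP was at 174 ± 34.6 TPM, PFKL at 118 ± 6.52 TPM and PFKM at 25.4 ± 0.561 TPM. The contrast was smaller for the hexokinases, which trap glucose in the cell by phosphorylation: HK1 was at 165 ± 17.7 TPM and the inducible HK2 at 52.1 ± 14.8 TPM. SLC2A1 (GLUT1) at 237 ± 54.0 TPM exceeded SLC2A3 (GLUT3) at 30.7 ± 8.07 TPM. ALDOA, the main aldolase, was only at 141 ± 12.2 TPM, and 46.6% of its 58-base stretches also occur in annotated transcripts of other genes, and how reads shared with them were counted is not stated. Of the HIF factors, HIF1A was at 524 ± 11.4 TPM and EPAS1 at 431 ± 21.1 TPM.

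The first comparison asked what 10 days in 0.1% serum did to these genes in wild-type cells. Genes of nearly every glycolytic step fell, most of them further than the typical gene. On the ERCC scale 33 of the 37 tested members fell and 0 rose, against a background of 36.1% of all tested genes called lower and 0.944% called higher. No member reached an unadjusted p under 0.05 in the upward direction, and 0 rose by the quasi-likelihood test or by DESeq2 either. The median member changed by -1.89 (log2), while the median of all tested genes was -0.97. On the TMM scale 27 members fell (background 16.6%) and 2 rose (background 16%; 4 without library 12), so the fall was larger than that of the typical gene for most of them. The 38 genes together took 1.70, 1.69 and 1.98% of all gene counts in the 3 libraries in 10% serum and 1.01, 1.05 and 0.860% in 0.1% serum.

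**Figure D1:**
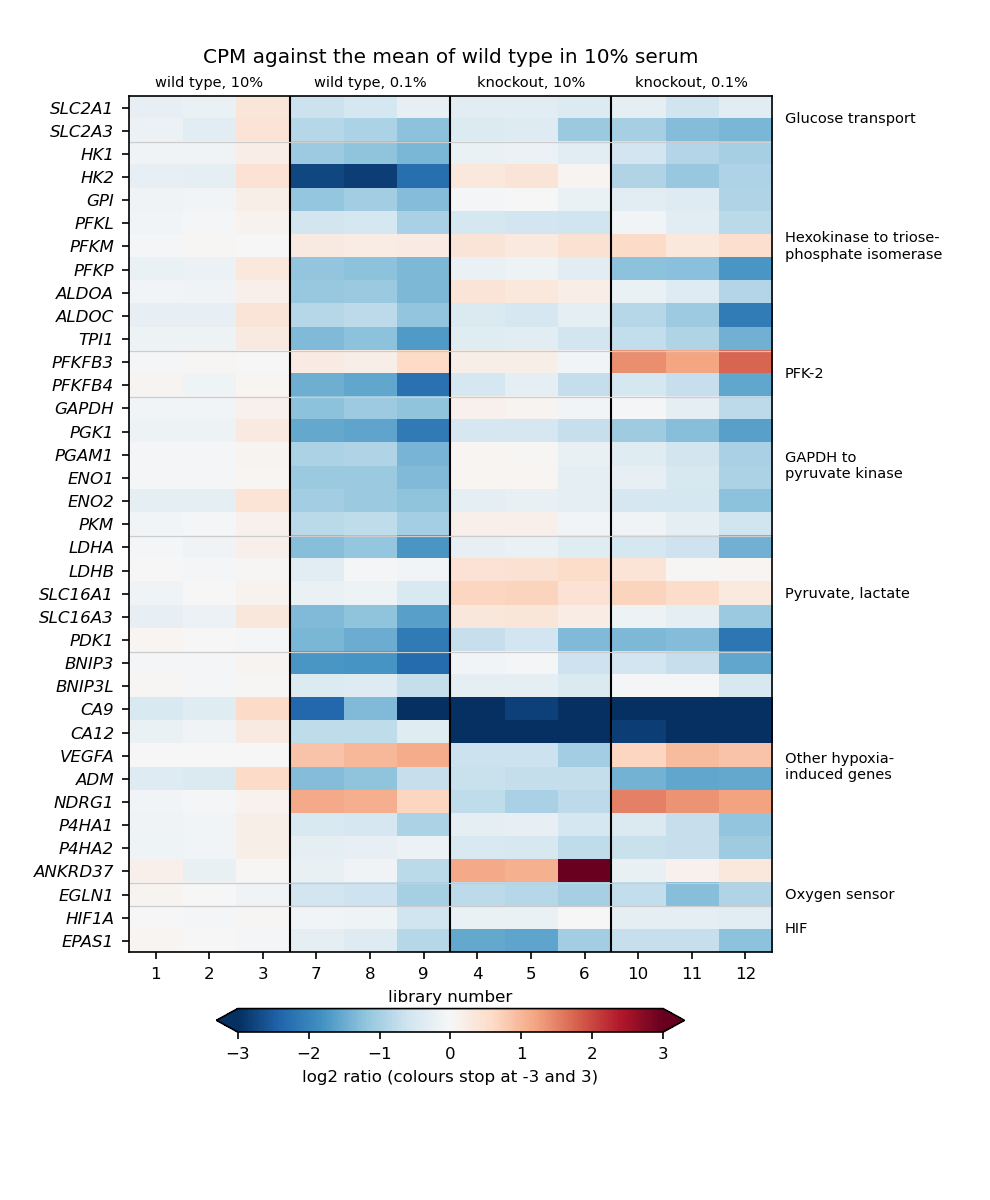
Level of each tested member in each library, as the log2 ratio of its CPM to the mean of wild type in 10% serum, with genes in rows by role and the 12 libraries in columns by group. Blue is lower and red higher, and colours stop at -3 and 3. The wild-type libraries in 0.1% serum (7 to 9) are blue over nearly all glycolytic rows, with VEGFA and NDRG1 red, and CA9 and CA12 are dark blue throughout the knockout.

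HK2 had the largest fall of any member. HK2 makes glucose 6-phosphate at the mitochondrial surface. Its level was 60.5, 58.4 and 97.1 CPM in the 3 wild-type libraries in 10% serum and 10.8, 10.1 and 14.9 CPM in 0.1% serum. The groups were far apart, and library 3 was the highest of the growing ones. The fall was -3.53 ± 0.45, adjusted p = 2.97e-10 on the ERCC scale and -2.59 ± 0.21, adjusted p = 2.61e-28 on the TMM scale. HK1 fell less, from 219, 219 and 270 CPM to 111, 103 and 92.1 CPM, with an ERCC-scale log2 fold change of -2.14 ± 0.44. The steps after it moved by similar amounts. GPI, the phosphoglucose isomerase, changed by -2.08 ± 0.44, ALDOA by -2.13 ± 0.45 and TPI1, the triose phosphate isomerase, by -2.30 ± 0.44 on the ERCC scale. ALDOC, the brain-type aldolase, changed by -1.81 ± 0.46. Of the 9 genes from hexokinase to triose phosphate isomerase, 8 fell on the ERCC scale (background 36.1%) and 8 on the TMM scale (background 16.6%).

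The 3 phosphofructokinase genes, which encode the committed step, were not all called, and their changes were not tested against one another. PFKP, the platelet form, fell from 167, 169 and 240 to 85.1, 81.2 and 75.2 CPM (ERCC-scale log2 fold change -2.16 ± 0.45, adjusted p = 1.15e-04). PFKL, the liver form, fell by 1.59 on the ERCC scale (adjusted p = 0.00516). PFKM, the muscle form, was not called: it was at 41.0, 43.2 and 42.8 CPM in 10% serum and 51.0, 49.8 and 49.8 CPM in 0.1% serum, with an ERCC-scale log2 fold change of -0.72 ± 0.45, adjusted p = 0.161. Its CPM values did not overlap between the groups, and all 3 low-serum values were higher.

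All 6 members from GAPDH to pyruvate kinase fell on both scales (background 36.1% on the ERCC and 16.6% on the TMM scale). PGK1, which makes the first ATP of the pathway, went from 616, 611 and 819 to 237, 226 and 157 CPM. The ERCC-scale change of -2.61 ± 0.44, adjusted p = 1.43e-06 was the largest of these 6. GAPDH went from 4278, 4301 and 4969 to 1917, 2119 and 1944 CPM, and PKM, the pyruvate kinase, from 2689, 2706 and 3076 to 1606, 1673 and 1390 CPM. GAPDH is often used as a reference gene, and here it fell by 1.18 on the log2 scale relative to the typical gene (adjusted p = 2.30e-10). PGAM1, ENO1 and ENO2 changed by -1.98, -2.12 and -2.00 on the ERCC scale.

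The lactate branch separated into genes that fell with glycolysis and genes that followed the typical gene. LDHA was at 2488, 2399 and 2863 CPM in 10% serum and 1066, 1148 and 764 CPM in 0.1% serum, and changed by -2.28 ± 0.44 (log2, SE) on the ERCC scale. SLC16A3 (MCT4), the lactate exporter of glycolytic cells, went from 355, 379 and 539 to 169, 184 and 138 CPM. PDK1 went from 82.6, 78.2 and 76.2 to 30.3, 28.3 and 18.1 CPM, an ERCC-scale log2 fold change of -2.57 ± 0.45, adjusted p = 5.03e-06. LDHB and SLC16A1 (MCT1), a lactate transporter that works in either direction, were called lower on the ERCC scale (-1.11 and -1.19). Relative to other genes they changed by -0.14 ± 0.14 and -0.26 ± 0.14 and were not called.

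**Figure D2:**
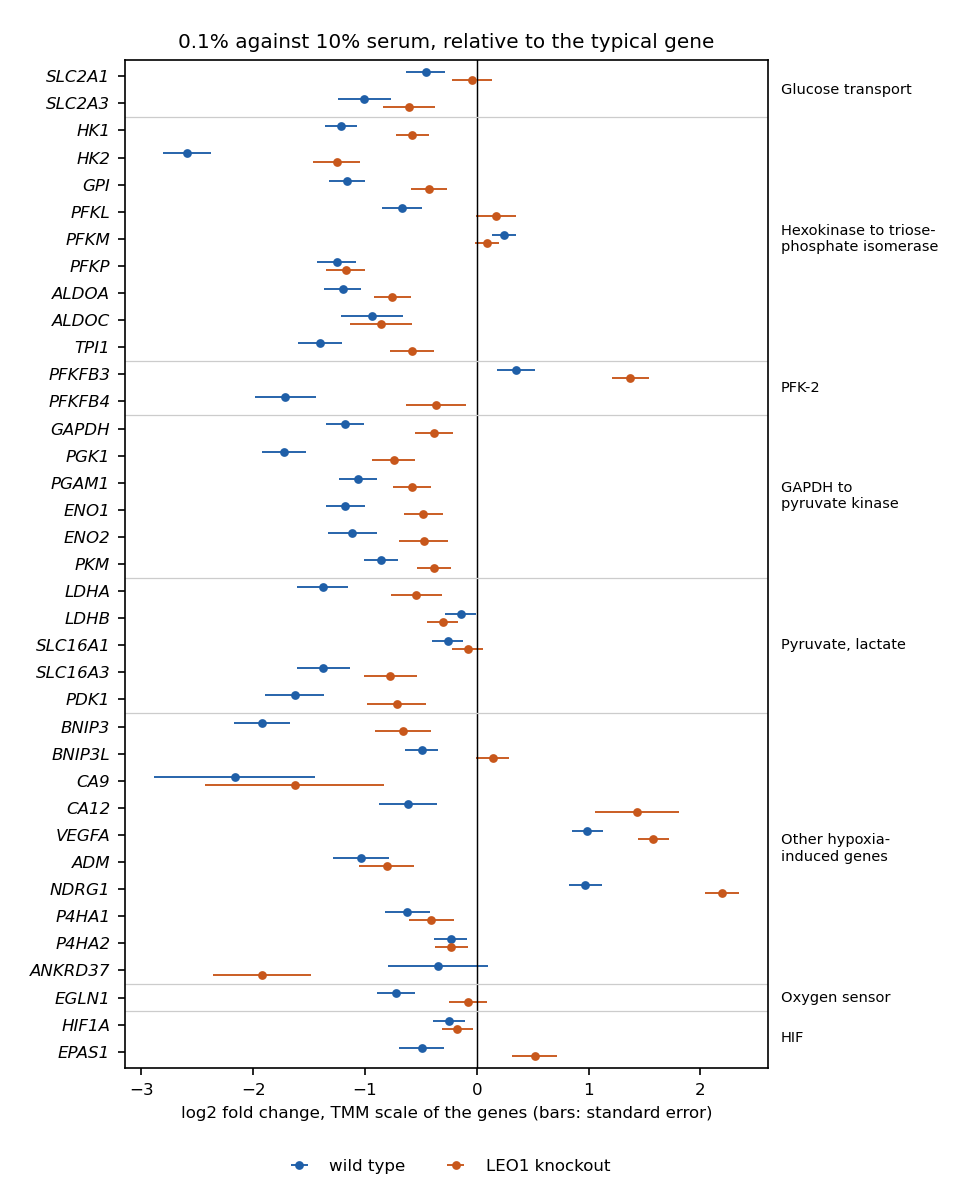
Log2 fold change in 0.1% against 10% serum on the TMM scale of the genes for wild type (blue) and ΔLEO1 (orange), with the standard error as bars and the tested members in rows by role. Most blue points lie left of the orange ones, HK2 at -2.59 against -1.25, while PFKFB3, VEGFA and NDRG1 lie right of zero in both.

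The promoters were searched for the core of the hypoxia response element, the sequence HIF binds. The letters were ACGTG and GCGTG on either strand, and overlapping matches were counted, so that CACGTG counts as 2. The windows ran from 250 bases before to 50 after each RefSeq transcript start on GRCh38.p14. Of the 38 members 33 were matched, all but SLC2A3, SLC16A1, BNIP3L, VEGFA and NDRG1. Of the 60 member windows, 40 held a match (66.7%), and of all 35116 windows 48.4% did. Among genes with 1 window, 19 of 22 members and 47.3% of the 22114 genes in the table held one. ACGTG alone was in 38.3% of member windows and 21.4% of all windows. The member windows were also richer in G and C, with a median of 68.3% against 58.7%, and the part of base composition in the difference was not tested. The list includes genes chosen as hypoxia-induced, so these shares are not independent of how it was made. Windows of the same gene can overlap. The 250 bases before the start are shown for 4 members with large falls in wild-type cells, 5′ to 3′ in the direction of the gene, with matches in capitals. They lie at chr2:74833877-74834126 (plus strand) for HK2, chr10:131981924-131982173 (minus) for BNIP3, chrX:78103998-78104247 (plus) for PGK1 and chr3:48556804-48557053 (minus) for PFKFB4, and HK2 has a further RefSeq start downstream.
HK2: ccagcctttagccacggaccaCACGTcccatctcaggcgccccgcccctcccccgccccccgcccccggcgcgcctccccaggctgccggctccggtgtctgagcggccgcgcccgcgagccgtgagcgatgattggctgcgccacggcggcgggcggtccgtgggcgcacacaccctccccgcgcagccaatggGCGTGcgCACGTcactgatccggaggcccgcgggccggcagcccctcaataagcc
BNIP3: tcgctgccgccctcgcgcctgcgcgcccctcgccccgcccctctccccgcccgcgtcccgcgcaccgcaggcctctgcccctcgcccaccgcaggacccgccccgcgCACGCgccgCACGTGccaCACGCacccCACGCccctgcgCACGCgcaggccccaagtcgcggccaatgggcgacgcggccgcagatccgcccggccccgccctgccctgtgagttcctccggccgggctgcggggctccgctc
PGK1: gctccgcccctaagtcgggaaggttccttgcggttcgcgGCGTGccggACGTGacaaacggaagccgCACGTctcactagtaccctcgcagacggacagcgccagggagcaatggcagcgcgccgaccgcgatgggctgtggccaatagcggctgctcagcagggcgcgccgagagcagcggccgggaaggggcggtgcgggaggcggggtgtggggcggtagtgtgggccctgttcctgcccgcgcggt
PFKFB4: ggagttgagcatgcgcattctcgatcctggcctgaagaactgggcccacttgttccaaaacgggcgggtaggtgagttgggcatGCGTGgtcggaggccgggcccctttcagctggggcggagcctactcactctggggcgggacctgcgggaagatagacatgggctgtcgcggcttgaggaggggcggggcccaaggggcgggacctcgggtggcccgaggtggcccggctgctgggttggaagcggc
These stretches hold 3 matches for HK2, 6 for BNIP3, 3 for PGK1 and 1 for PFKFB4, and a match is a description of the letters, not a tested binding site.

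The 2 PFK-2 genes among the members, which make the activator of phosphofructokinase, fructose 2,6-bisphosphate, were not both called in wild-type cells. PFKFB4 went from 18.8, 16.3 and 18.6 CPM to 6.48, 6.12 and 3.76 CPM (ERCC-scale log2 fold change -2.64 ± 0.48, adjusted p = 1.14e-05). PFKFB3, the most active of the family in making the activator, was at 59.0, 62.4 and 61.9 CPM in 10% serum and 72.4, 68.5 and 92.9 CPM in 0.1% serum. The ERCC-scale change of -0.65 ± 0.45, adjusted p = 0.198 was not called, nor was that on the TMM scale (adjusted p = 0.0914), although its CPM values did not overlap.

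The glucose transporters fell moderately. SLC2A3 was at 38.0, 34.3 and 56.8 CPM in 10% serum and 23.9, 22.2 and 18.3 CPM in 0.1% serum (ERCC-scale log2 fold change -1.89 ± 0.46, adjusted p = 0.00118). SLC2A1 changed by -1.38 ± 0.44 on the ERCC scale, and its CPM in library 9 (217) lay within the range of the growing cells.

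Among the other hypoxia-induced genes, the direction depended on the gene. BNIP3, a mitophagy receptor, fell from 169, 166 and 184 to 51.5, 50.8 and 35.0 CPM, an ERCC-scale log2 fold change of -2.84 ± 0.45, adjusted p = 2.39e-07. Its relative BNIP3L fell by 1.44 on that scale (adjusted p = 0.0108). CA9, a carbonic anhydrase on the cell surface and a standard hypoxia marker, was scarce, with 159, 184 and 350 counts in 10% serum and 42, 67 and 16 counts in 0.1% serum, and fell (-2.88 ± 0.52, adjusted p = 9.67e-06 on the ERCC scale). ADM, which encodes the vasodilator adrenomedullin, also fell (-1.94 ± 0.44), as did P4HA1 (-1.53 ± 0.44), a collagen prolyl hydroxylase. CA12 (-1.57 ± 0.51), P4HA2 (-1.18 ± 0.44) and ANKRD37 (-1.28 ± 0.51) were called lower on the ERCC scale, but on the TMM scale they changed by -0.62 ± 0.26, -0.23 ± 0.15 and -0.35 ± 0.45 and were not called.

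VEGFA and NDRG1 went against the group. VEGFA, the vascular growth factor, was at 64.9, 64.7 and 64.6 CPM in 10% serum and 116, 129 and 140 CPM in 0.1% serum, with no overlap. NDRG1, a stress-responsive gene often used as a hypoxia marker, was at 171, 176 and 192 CPM and 392, 383 and 282 CPM. VEGFA changed on the TMM scale by 0.99 ± 0.14, adjusted p = 4.98e-11 and NDRG1 by 0.97 ± 0.15, adjusted p = 3.11e-09, the only members that rose on that scale. Their ERCC-scale log2 fold changes were 0.01 ± 0.45 and 0.05 ± 0.44, and neither was called. So their rise held relative to other genes, while per amount of spike-in no change was detected.

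Relative to other genes EPAS1 fell slightly, EGLN1 fell and HIF1A was not called. HIF1A was at 617, 597 and 626 CPM in 10% serum and 581, 559 and 408 CPM in 0.1% serum, with a TMM-scale log2 fold change of -0.25 ± 0.14, adjusted p = 0.171. EPAS1 changed by -0.49 ± 0.20, adjusted p = 0.0470 on the TMM scale. EGLN1, the main oxygen-sensing prolyl hydroxylase, changed by -1.68 on the ERCC scale and -0.72 on the TMM scale and was called on both. The calls rested on the libraries to different degrees. With 1 library left out, between 21 and 33 members were called lower on the ERCC scale, the fewest without library 9. Of the 33 calls, 21 were kept whichever library was removed. Merging the 2 similar libraries of each group into 1 also kept 21 of the 33 calls. Without the highest-numbered library of each group 35 fell and 0 rose on the ERCC scale (background 72.4% and 1.28%), and 29 fell and 4 rose on the TMM scale (30.8% and 27.9%).

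**Figure D3:**
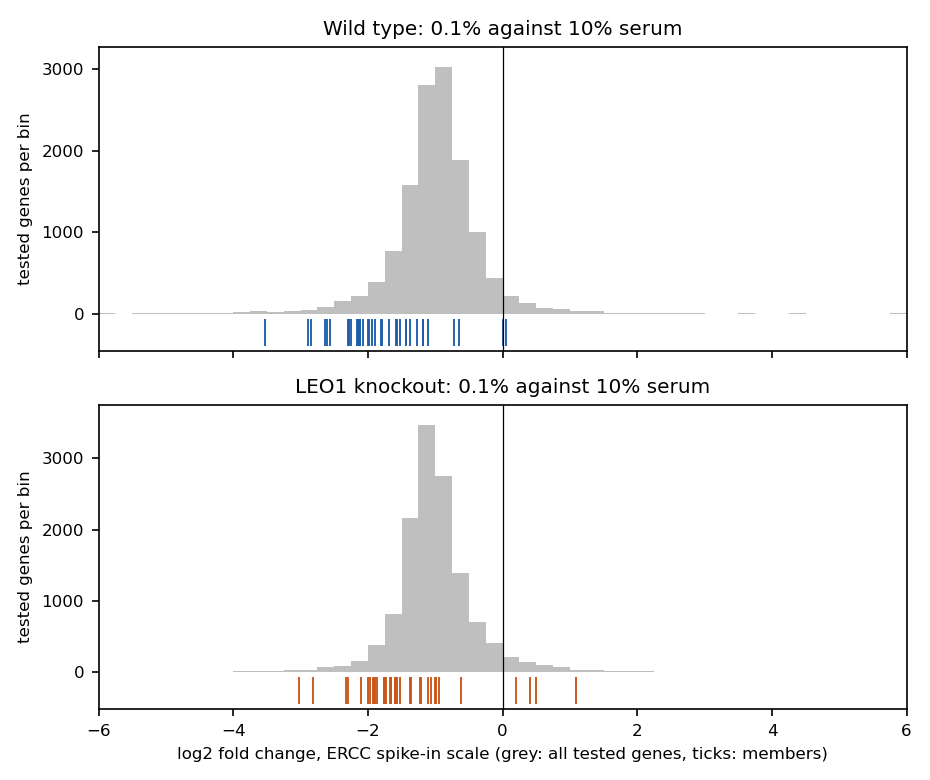
Distribution of log2 fold changes in 0.1% against 10% serum on the ERCC scale for all 13236 tested genes (grey bars, genes per bin of 0.25, with values beyond the axis placed in the end bins) and for the 37 tested members (coloured ticks), in wild type and ΔLEO1. The member ticks lie mostly left of the grey peak, with medians of -1.89 in wild type and -1.60 in ΔLEO1.

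In ΔLEO1 cells most glycolytic genes also fell with low serum. On the ERCC scale 30 of 37 members fell and 1 rose, against 47.2% and 0.975% of all tested genes. The median member changed by -1.60 and the median gene by -1.05. On the TMM scale 17 members fell (background 12.9%), or 10 without library 4, 5 or 12, and 5 rose (background 16.5%). The 30 members called lower on the ERCC scale in ΔLEO1 cells were all among the 33 of wild type, and CA12, EPAS1 and PFKL were called lower in wild type alone, a difference that was not itself past the threshold on that scale. The 38 genes took 1.70, 1.71 and 1.48% of gene counts in the growing ΔLEO1 libraries and 1.51, 1.40 and 1.10% in those kept in low serum. Library 12 lay apart from libraries 10 and 11 in this share. Without the highest-numbered library of each group, 33 members fell and 0 rose on the ERCC scale, where 93.1% of all genes were called lower and 0.751% higher. On the TMM scale 23 then fell (28.4%) and 7 rose (29.2%). Once the 2 similar libraries of each group were merged into 1, only 3 of the 31 ERCC-scale calls in ΔLEO1 cells were kept. No merged fit was made on the TMM scale.

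By role, 7 of the 9 genes from hexokinase to triose phosphate isomerase fell on the ERCC scale, all 6 from GAPDH to pyruvate kinase, all 5 of pyruvate and lactate handling and 7 of the 10 other hypoxia-induced genes (background 47.2%). On the TMM scale 7, 4, 2 and 3 of them were called lower, in the same order (background 12.9%). Of the other hypoxia-induced genes 3 were called higher on that scale (background 16.5%). HK2 fell from 89.7, 93.8 and 76.0 CPM in 10% serum to 38.4, 32.5 and 37.9 CPM in 0.1% serum. The TMM-scale change was -1.25 ± 0.21, adjusted p = 1.07e-07. PFKP fell from 166, 173 and 154 to 81.5, 80.0 and 57.7 CPM (-1.17 ± 0.17, adjusted p = 7.24e-10 on the TMM scale). For the enzymes downstream the low-serum libraries differed among themselves. GAPDH was at 4902, 4770 and 4238 CPM in 10% serum and 4313, 3728 and 2618 CPM in 0.1% serum, so library 10 overlapped the growing cells and library 12 did not. LDHA was at 2183, 2245 and 1995 and 1796, 1677 and 945 CPM, with library 12 again the lowest. Both were called lower on the ERCC scale (-1.56 ± 0.44 and -1.77 ± 0.44), while on the TMM scale neither was (adjusted p = 0.0724 and 0.0556).

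PFKFB3, VEGFA and NDRG1 rose relative to other genes in ΔLEO1 cells. PFKFB3 went from 69.0, 68.5 and 57.6 to 161, 138 and 206 CPM, a TMM-scale log2 fold change of 1.37 ± 0.17, adjusted p = 4.27e-14. VEGFA went from 41.5, 41.7 and 31.6 to 102, 126 and 116 CPM (1.58 ± 0.14, adjusted p = 1.91e-26). NDRG1 went from 106, 91.3 and 104 to 512, 457 and 412 CPM (2.19 ± 0.15, adjusted p = 6.35e-42), and all 3 genes had groups that did not overlap. NDRG1 was the 1 member called higher on the ERCC scale, at 1.09 ± 0.44, adjusted p = 0.0383. That call ended when any of 7 single libraries was left out (2, 4, 5, 6, 7, 10 or 12) and under the quasi-likelihood test, where 0 members were called higher (1 at an unadjusted p under 0.05), while DESeq2 called 1.

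The remaining TMM-scale rises in ΔLEO1 cells were CA12 and EPAS1. CA12, a second cell-surface carbonic anhydrase, was at only 10, 16 and 12 counts in 10% serum and 37, 32 and 16 counts in 0.1% serum (TMM scale 1.43 ± 0.37, adjusted p = 7.51e-04). EPAS1 went from 246, 239 and 349 to 445, 444 and 306 CPM, and the groups overlapped (0.52 ± 0.20, adjusted p = 0.0376). ANKRD37, a small HIF target, fell on both scales (-2.81 ± 0.50, adjusted p = 9.47e-06 on the ERCC scale), from 269, 301 and 1079 counts to 94, 116 and 151 counts, and library 6 alone held most of the counts. Relative to other genes (TMM scale), 16 of the 17 members that fell in ΔLEO1 cells also fell in wild type (16 of 27), among them PDK1 (-0.72 ± 0.26), SLC16A3 (-0.77 ± 0.24), ADM (-0.81 ± 0.25) and TPI1 (-0.58 ± 0.20).

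With 1 library left out, 15 to 33 members were called lower in ΔLEO1 cells on the ERCC scale, the fewest without library 4. Of the 30 calls, 15 were kept whichever library was removed. Leaving out 1 library of a similar pair keeps the other, so these counts cannot show how far the calls rest on that pair. BNIP3L, called lower on the ERCC scale (-1.01), changed by about as much as the median gene there and was not called on the TMM scale (0.14 ± 0.15, adjusted p = 0.496). Its ERCC-scale call was lost without any one of 9 libraries (1, 2, 4, 5 or 7 to 11).

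Whether the serum response differed between the genotypes was tested as an interaction. By ERCC scaling 0 members were called in either direction, against 0.0831% of all tested genes called lower and 0.136% called higher. By the same likelihood ratio test and by the quasi-likelihood test, 1 member in each direction had an unadjusted p under 0.05, and by DESeq2 0 lower and 2 higher did, with 0 called. The standard errors on this scale were large, about 0.62 to 0.82. The HK2 interaction, for example, was 1.24 ± 0.64, with a 95% interval from -0.01 to 2.49. On the TMM scale, where the spread between libraries was smaller, 12 members had a higher (less negative or more positive) change in ΔLEO1 cells and 0 a lower one, against 3.07% and 1.02% of all tested genes. The median member had an interaction of 0.64 on that scale, and 34 of the 37 were above zero, while 47.5% of all tested genes were below it. On the ERCC scale the member median was 0.43, with 10 members and 58% of all tested genes below zero. Without the highest-numbered libraries the ERCC-scale member median was -0.17, beside -0.67 for all tested genes. There 25 members and 91.9% of all tested genes were below zero.

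The 12 came from several steps. Of the hexokinases, HK2 had 1.34 ± 0.30, adjusted p = 7.51e-04 and HK1 0.64 ± 0.21, adjusted p = 0.0475. GPI (0.73 ± 0.23) and PFKL (0.85 ± 0.25) followed, and further down GAPDH (0.80 ± 0.24) and PGK1 (0.98 ± 0.28). PFKFB3 had 1.02 ± 0.24, adjusted p = 0.00116 and PFKFB4 1.35 ± 0.38, adjusted p = 0.0163, so both PFK-2 genes of the member list were among them. Of the hypoxia-induced genes, NDRG1 had the smallest adjusted p (1.22 ± 0.21, adjusted p = 2.06e-06), and BNIP3 (1.26 ± 0.35, adjusted p = 0.0131), CA12 (2.05 ± 0.45, adjusted p = 4.45e-04) and EPAS1 (1.01 ± 0.29, adjusted p = 0.0155) were also called. By contrast PFKP (0.08 ± 0.24), ALDOC (0.08 ± 0.39), HIF1A (0.08 ± 0.20) and LDHB (-0.16 ± 0.20) had interactions within 1 standard error of zero. ANKRD37 had the lowest interaction of the members, -1.57, which was not called, and library 6 held most of its counts in growing ΔLEO1 cells. The quasi-likelihood test on the same scale called 4 of the 12 (CA12, NDRG1, PFKFB3 and HK2, background 1.55%). The count of 12 was sensitive to single libraries: it was 21 without library 12, 5 without library 10, and 6 or 7 without any one of libraries 1 to 6 or 11. Without the highest-numbered library of each group it was 24 higher and 1 lower (background 17.5% and 9.99%), and on the ERCC scale 0 were called in either direction (0.147% and 0.736%). That fit keeps only the 2 more similar libraries of each group. The TMM-scale background with all 12 libraries was 3.07% higher and 1.02% lower, so the counts are not comparable.

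**Figure D4:**
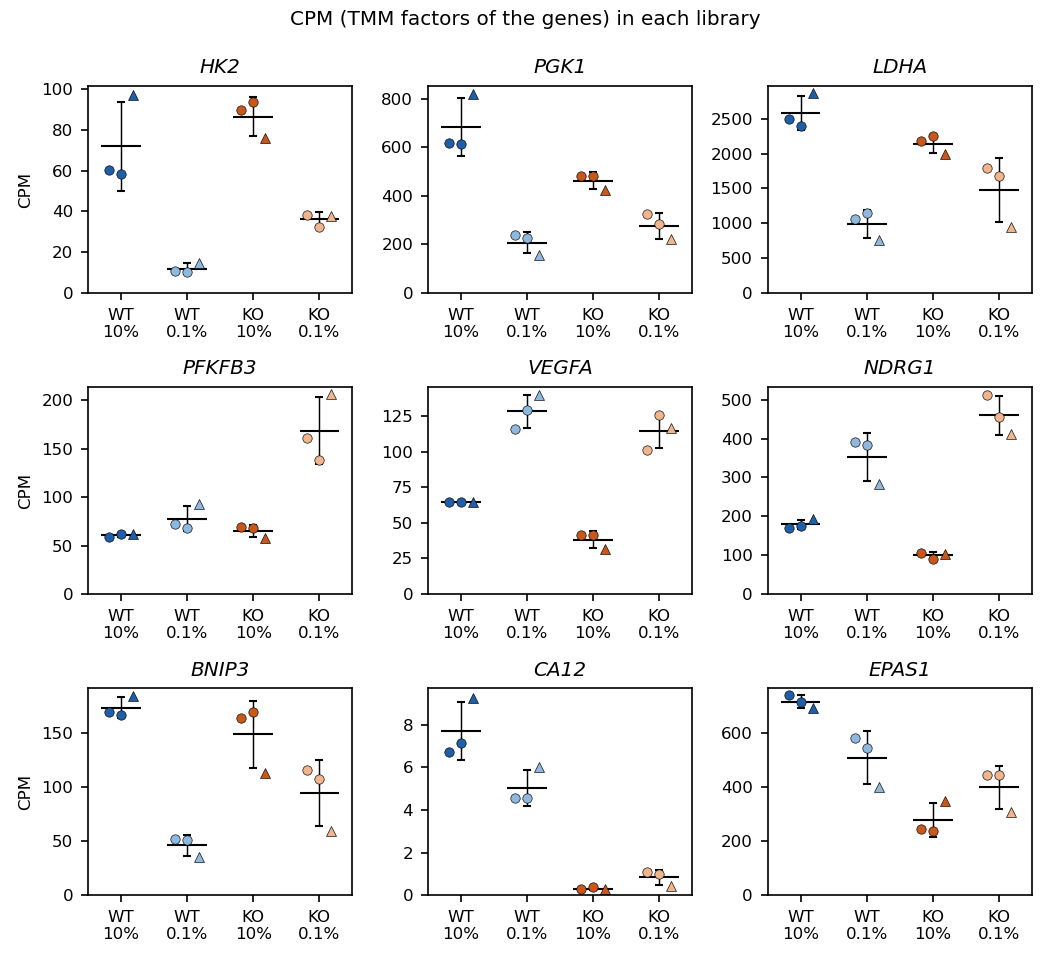
CPM with TMM factors in each of the 12 libraries for 9 members, with wild type (WT) in blue and ΔLEO1 (KO) in orange. The vertical axis starts at 0, points are libraries, triangles mark the highest-numbered library of each group, and bars are the mean and SD of 3. HK2 falls to 10.1 to 14.9 CPM in wild type and 32.5 to 38.4 CPM in the knockout, and EPAS1 and CA12 are lower in growing knockout cells.

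The remaining comparisons set ΔLEO1 against wild type at the same serum level. In 10% serum the called members were spread over transport, lactate handling, hypoxia-induced genes, EGLN1 and EPAS1, and between hexokinase and pyruvate kinase only PGK1, PFKL and PFKM were called on either scale. By ERCC scaling 2 members were lower in ΔLEO1 cells and 1 higher, against 4.64% and 4.2% of all tested genes. Relative to other genes 12 were lower (background 21.8%) and 4 higher (background 17.7%). Of the 12, the hypoxia-induced group gave 6: CA9, CA12, VEGFA, ADM (-0.69 ± 0.25), NDRG1 and P4HA2 (-0.56 ± 0.15). PGK1 (-0.56 ± 0.19), PFKL (-0.56 ± 0.18) and SLC2A3 (-0.61 ± 0.23) were also lower relative to other genes. Without the highest-numbered libraries 3 were lower and 1 higher on the ERCC scale (background 6.82% and 6.72%) and 16 lower and 9 higher on the TMM scale (32.6% and 30.9%).

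CA12 was nearly lost. It had 240, 272 and 352 counts in the wild-type libraries and 10, 16 and 12 counts in the ΔLEO1 libraries in 10% serum. In 0.1% serum it had 158, 124 and 206 counts in wild type and 37, 32 and 16 in ΔLEO1. The ERCC-scale difference was -4.31 ± 0.55, adjusted p = 6.19e-11 in 10% serum and -2.54 ± 0.53, adjusted p = 1.31e-04 in 0.1% serum. CA12 lies at chr15:63321378-63382161 on the minus strand (GRCh38), and 0.0273% of its 58-base stretches occur in other genes.

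CA9 was lower as well, with 159, 184 and 350 counts in wild type and 26, 40 and 3 in ΔLEO1 cells in 10% serum. In 0.1% serum the counts were 42, 67 and 16 and 9, 7 and 2. The groups did not overlap in either medium, and the ERCC-scale log2 fold changes were -2.97 ± 0.53, adjusted p = 5.36e-06 and -3.10 ± 0.63, adjusted p = 2.72e-05. The CA9 gene (chr9:35673856-35681159, plus strand) overlaps ARHGEF39 on the other strand, 29.4% of its 58-base stretches are shared with it, and whether counting used the strand was not stated. ARHGEF39 was at 3.49 and 3.70 CPM in wild-type libraries 2 and 1, 1.03 in library 3, and 3.03 to 3.64 CPM in the growing ΔLEO1 libraries.

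EPAS1 was lower in growing ΔLEO1 cells relative to other genes. Its level was 740, 712 and 694 CPM in wild type and 246, 239 and 349 CPM in ΔLEO1, with no overlap. The TMM-scale difference was -1.36 ± 0.20, adjusted p = 4.37e-10, and that on the ERCC scale was -1.06 ± 0.44, adjusted p = 0.143, which was not called. In 0.1% serum the values were 583, 545 and 398 and 445, 444 and 306 CPM, which overlapped, and the TMM-scale change was -0.35 ± 0.20, adjusted p = 0.177. HIF1A did not show this pattern, with a TMM-scale change of -0.12 ± 0.14, adjusted p = 0.514 in 10% serum and -0.05 ± 0.14, adjusted p = 0.829 in 0.1% serum. EGLN1 was at 24.1, 23.2 and 21.3 CPM in growing wild type and 13.3, 12.6 and 11.4 CPM in growing ΔLEO1 cells (TMM scale -0.88 ± 0.17, adjusted p = 2.44e-06).

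NDRG1, VEGFA and PDK1 were also lower in growing ΔLEO1 cells on the TMM scale. NDRG1 was at 171, 176 and 192 and 106, 91.3 and 104 CPM (-0.84 ± 0.15, adjusted p = 2.45e-07). VEGFA was at 64.9, 64.7 and 64.6 and 41.5, 41.7 and 31.6 CPM (-0.76 ± 0.14, adjusted p = 5.10e-07). PDK1 changed by -0.83 ± 0.26, adjusted p = 0.00633. None of the 3 was called on the ERCC scale, where the adjusted p was 0.602, 0.666 and 0.611.

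The genes higher in growing ΔLEO1 cells on the TMM scale were SLC16A1 (0.59 ± 0.14, adjusted p = 1.43e-04), LDHB (0.48 ± 0.14, adjusted p = 0.00228), PFKM (0.38 ± 0.11, adjusted p = 0.00217) and ANKRD37. SLC16A1 was at 96.0, 101 and 111 CPM in wild type and 161, 164 and 138 CPM in ΔLEO1. ANKRD37 was the 1 member called higher on the ERCC scale (2.23 ± 0.50, adjusted p = 4.09e-04), and that call was lost without library 6, which held 1079 counts against 269 and 301 in libraries 4 and 5. It shares 31.8% of its 58-base stretches with UFSP2, which overlaps it, and UFSP2 was at 19.3 to 21.5 CPM in these 3 libraries. LDHB also overlaps another annotated gene, which shares 28.5% of its stretches.

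**Figure D5:**
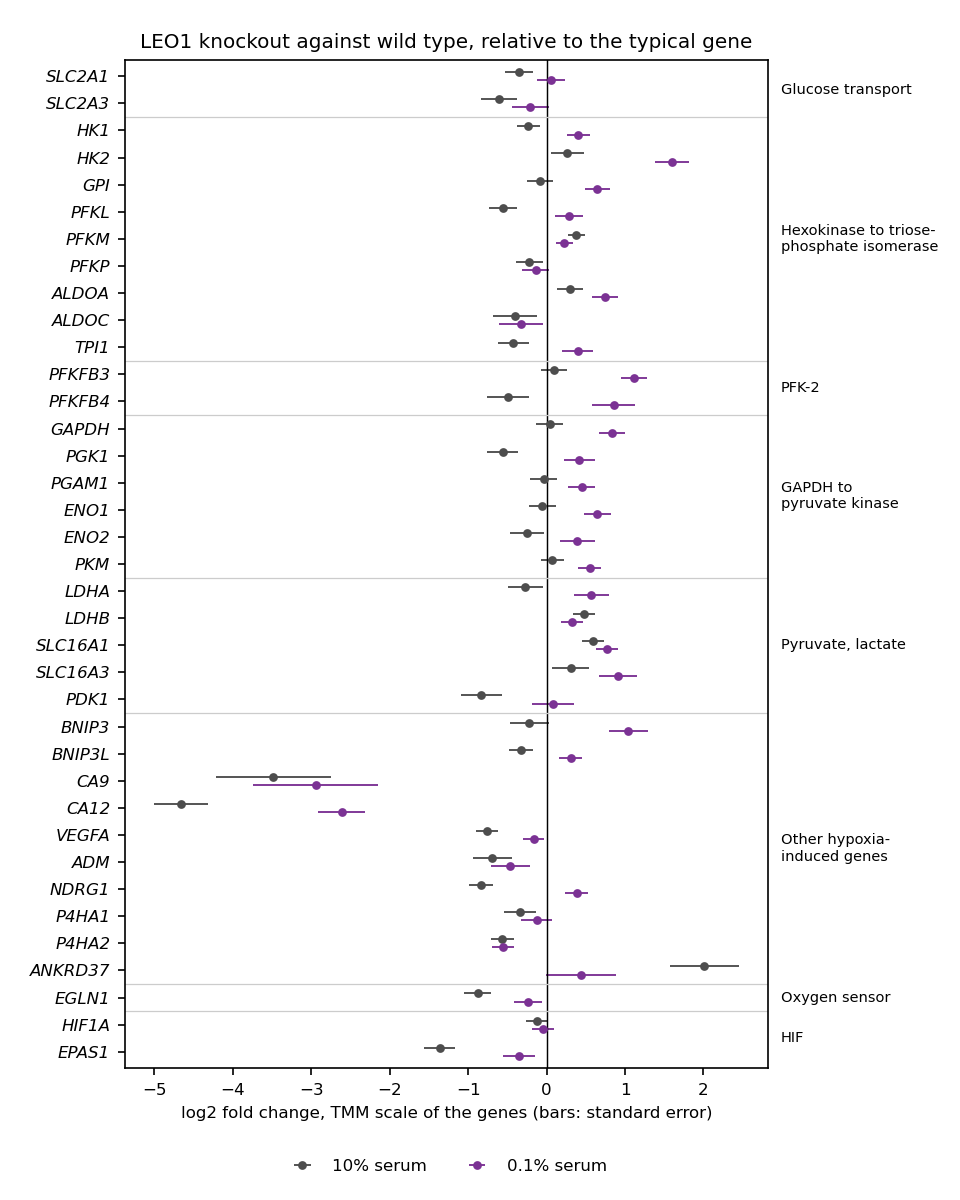
Log2 fold change of ΔLEO1 against wild type on the TMM scale of the genes in 10% serum (grey) and 0.1% serum (purple), with the standard error as bars and the tested members in rows by role. In 10% serum the glycolytic rows lie around zero, while in 0.1% serum they lie mostly right of it, HK2 at 1.60, and CA9 and CA12 lie far left in both.

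In 0.1% serum ΔLEO1 cells held more glycolytic transcript than wild-type cells relative to other genes. On the TMM scale 15 members were higher (background 15.4%) and 3 lower (background 17.6%), with a median member of 0.38. With 1 library left out the count of 15 ranged from 10 (without library 9 or 10) to 21. With ERCC scaling 2 were higher and 2 lower, against 3.85% and 3.59% of all tested genes. The share of members called higher on the TMM scale was above the background, and that called lower was below it. Without the highest-numbered libraries 2 were lower and 1 higher on the ERCC scale (background 15.9% and 2.54%) and 8 lower and 22 higher on the TMM scale (29.8% and 31.1%). This comparison shares its ΔLEO1 and wild-type libraries with the 2 serum comparisons above.

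HK2 and PFKFB3 were the members called higher on both scales. HK2 was at 10.8, 10.1 and 14.9 CPM in wild type and 38.4, 32.5 and 37.9 CPM in ΔLEO1 cells in 0.1% serum (1.60 ± 0.21, adjusted p = 5.62e-12 on the TMM scale). Scaled to the spike-in it was at 520, 635 and 570 and 1982, 989 and 3662 gene counts per 1e6 spike-in counts, again without overlap but with a wide spread in ΔLEO1 (1.94 ± 0.45, adjusted p = 8.71e-04). PFKFB3 was at 72.4, 68.5 and 92.9 and 161, 138 and 206 CPM (1.11 ± 0.17, adjusted p = 7.22e-10). Its ERCC-scale call (1.52 ± 0.45, adjusted p = 0.0156) was lost without library 7, 8, 9 or 12. Without library 11, 7 members were called higher on the ERCC scale, and the share of all tested genes called in that fit was not computed. Library 12 had the highest PFKFB3 level and the lowest ERCC share of the low-serum libraries.

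The glycolytic enzymes followed in smaller steps. GAPDH was at 1917, 2119 and 1944 CPM in wild type and 4313, 3728 and 2618 CPM in ΔLEO1 (0.83 ± 0.17, adjusted p = 1.02e-05). ALDOA (0.75 ± 0.17), ENO1 (0.65 ± 0.17), GPI (0.65 ± 0.16), PKM (0.55 ± 0.15), PGAM1 (0.45 ± 0.17) and HK1 (0.40 ± 0.15) were called higher on the TMM scale too. So were LDHA (0.57 ± 0.23, adjusted p = 0.0379) and both lactate transporters, SLC16A3 (0.91 ± 0.24, adjusted p = 8.09e-04) and SLC16A1 (0.77 ± 0.14, adjusted p = 5.73e-07). PFKFB4 (0.86 ± 0.27, adjusted p = 0.00821), BNIP3 (1.04 ± 0.25, adjusted p = 2.44e-04) and NDRG1 (0.38 ± 0.15, adjusted p = 0.0335) completed the 15. For LDHA, library 12 (945 CPM) lay within the wild-type range, and PFKFB4 and PGAM1 also overlapped. Besides CA9 and CA12, P4HA2, a relative of P4HA1, was lower, at 236, 243 and 255 CPM in wild type and 182, 179 and 138 CPM in ΔLEO1 (-0.56 ± 0.15, adjusted p = 8.74e-04). VEGFA (-0.16 ± 0.14), PFKP (-0.14 ± 0.17) and SLC2A1 (0.06 ± 0.18) were not called.

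EGLN3, which is itself strongly HIF-induced in many cells, was nearly absent. It had 0, 1 and 1 counts in growing wild type, 1, 3 and 0 in wild type in 0.1% serum, 0, 0 and 0 in growing ΔLEO1 and 6, 2 and 4 in ΔLEO1 in 0.1% serum. It was below the filter and was not tested. In ΔLEO1 cells the 12 summed counts in 0.1% serum against 0 in 10% serum were at least 1.59-fold higher against a floor of 3 counts per library, which covers counting error only. In 0.1% serum the 12 counts of ΔLEO1 against 4 in wild type gave a CPM ratio of 2.76 (95% counting interval 0.836 to 11.7), a difference not detectable at this depth.

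Further genes of the same pathways gave a frame for these values. Of 29 tested other genes of glycolysis, gluconeogenesis and pyruvate metabolism, 19 fell and 1 rose with low serum in wild type on the ERCC scale, and 16 fell and 1 rose in ΔLEO1 (background 36.1% and 47.2% of all tested genes called lower), with median changes of -1.35 and -1.27 (log2). The gene that rose in both was PDK4, which like PDK1 blocks pyruvate oxidation and is known as a fasting-induced gene. PDK4 had 1, 3 and 1 counts in growing wild type and 199, 127 and 248 in 0.1% serum, a CPM ratio of 133 with a 95% counting interval of 56.7 to 412. In ΔLEO1 it had 0, 2 and 0 and 19, 27 and 16 counts, a ratio of 37.2 (9.87 to 314), and counting intervals cover counting error only. PDK1 and PDK4 thus moved in opposite directions in wild-type cells. Low-serum PDK4 was lower in the knockout than in the wild type (-3.17 ± 0.55, adjusted p = 1.85e-06).

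PFKFB2 and PDK3 differed between the genotypes in both media. PFKFB2, the heart-type PFK-2, had 165, 150 and 116 counts in growing wild type and 1, 1 and 1 in growing ΔLEO1 cells. In 0.1% serum it had 90, 65 and 104 counts in wild type and 0, 0 and 0 in ΔLEO1, at least 31.0-fold lower against a floor of 3 counts per library. PDK3 was higher in ΔLEO1 cells, with 11.6, 9.95 and 9.21 CPM against 2.25, 2.78 and 1.74 CPM in 10% serum (2.52 ± 0.50, adjusted p = 5.00e-05 on the ERCC scale). SLC2A12, another glucose transporter, was lower (-2.58 ± 0.51, adjusted p = 3.89e-05 in 10% serum), and ENO3, the muscle enolase, was higher (1.90 ± 0.49, adjusted p = 0.00312). GPD1L was higher in 10% serum (1.36 ± 0.47, adjusted p = 0.0491), a call kept only when library 11 or 12 was the one left out. With low serum PDK3 (-1.95), SLC2A6 (-1.81) and PCK2 (-1.75) fell most in wild type. In ΔLEO1 cells PDP2 (-2.07) and SLC2A6 (-1.77) fell, and PFKFB2 was called lower from 1 count per library to 0, too few for a fold change. The SLC2A6 calls were lost without library 9 (wild type) or 10 (ΔLEO1), and that of PCK2 without library 7.

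Many pentose phosphate and glycogen genes also fell on the ERCC scale. Of 20 tested, 15 fell in wild type and 14 in ΔLEO1 and 0 rose, against 36.1% and 47.2% of all tested genes called lower. The median changes were -1.30 and -1.19, beside -0.97 and -1.05 for all genes. GYS1, the muscle glycogen synthase, was at 99.5, 96.0 and 141 CPM in growing wild type and 39.8, 36.6 and 40.8 CPM in 0.1% serum (-2.45 ± 0.45, adjusted p = 1.14e-05). TKT, the transketolase, fell by 1.85 and PGM1, a phosphoglucomutase, fell by 2.30 in wild type. In ΔLEO1 cells GYS1 (-2.01), GYG1 (-1.83) and TKT (-1.70) fell most, while GAA (-1.03) and UGP2 (-1.04) changed by about as much as the median gene, and each lost its call without any one of 7 libraries (2, 4, 5, 7, 8, 10 or 11). The TKT call was lost without library 10. PGM1 was lower in growing ΔLEO1 cells, at 30.1, 29 and 20.0 CPM against 107, 106 and 102 (-1.62 ± 0.45, adjusted p = 0.00774), a call lost without library 1, 5 or 6. PPP1R3C, which targets a phosphatase to glycogen, was higher in ΔLEO1 cells in 0.1% serum, at 245, 207 and 188 CPM against 53.1, 52.6 and 53.5 (2.23 ± 0.45, adjusted p = 6.93e-05).

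The genes that control HIF had medians near that of all genes. Of 19 tested, 8 fell in wild type and 11 in ΔLEO1 on the ERCC scale (background 36.1% and 47.2%), with medians of -1.01 and -1.18. CITED2, a HIF-induced inhibitor of HIF, fell from 1202, 1193 and 1801 to 467, 413 and 263 CPM in wild type (-2.74 ± 0.44, adjusted p = 3.21e-07) and changed by -2.26 in ΔLEO1. ARNT2, a partner of HIF-α subunits, changed by -2.49 in wild type and -3.83 in ΔLEO1. The antisense RNA HIF1A-AS3, which lies on the strand opposite HIF1A with no shared exon bases in the annotation used, had 16, 22 and 57 counts in growing wild type and 1, 1 and 0 in 0.1% serum, with 55, 57 and 45 and 16, 10 and 13 in ΔLEO1 cells.

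Of 44 tested further hypoxia-induced genes, 30 fell and 2 rose in wild type and 19 fell and 2 rose in ΔLEO1 on the ERCC scale, with medians of -1.36 and -1.01. The backgrounds of 36.1% and 47.2% called lower were below the share of these genes in wild type and above it in ΔLEO1. ANGPTL4, a lipoprotein lipase inhibitor, rose in both, from 1.94, 1.31 and 1.21 to 30.6, 27.6 and 23.2 CPM in wild type (3.19 ± 0.50, adjusted p = 3.12e-07) and from 0.553, 0.402 and 0.0932 to 20.5, 20.7 and 7.44 CPM in ΔLEO1 (4.14 ± 0.54, adjusted p = 4.17e-10). PGF, a relative of VEGFA, rose in wild type (2.49 ± 0.57) and BHLHE40, a transcriptional repressor, in ΔLEO1, from 36.7, 35.3 and 23.1 to 108, 117 and 261 CPM (adjusted p = 0.0104). The BHLHE40 rise on the ERCC scale rested on library 12, without which the log2 fold change was 0.18, adjusted p = 0.654. LOXL2, a collagen cross-linking enzyme, fell in both (-2.63 and -2.31), with PPFIA4 (-2.60) and PDGFB in wild type and FLT1 (-2.08) and DDIT3 (-1.84, lost without library 4 or 10) in ΔLEO1.

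Between the genotypes, VLDLR, which binds apolipoprotein E-rich lipoproteins, was at 35.6, 33.6 and 28.7 CPM in growing wild type and 1.40, 1.36 and 1.24 CPM in growing ΔLEO1 cells (-4.29 ± 0.49, adjusted p = 6.47e-13). AK4, a mitochondrial adenylate kinase, was at 45.8, 46.2 and 41.4 and 6.27, 6.0 and 2.91 CPM (-2.75 ± 0.47, adjusted p = 1.55e-06). Both stayed lower in 0.1% serum (-3.17 and -1.63), as did PGF (-2.60), while ANGPTL4 (-1.72) was lower and FLT1 (1.35) higher in 10% serum and STC2 (1.40) higher in 0.1% serum. Some of these calls were lost with 1 library left out: AK4 in 0.1% serum without library 7 or 8, ANGPTL4 without 1, 2, 5 or 6, FLT1 without any one of 1 to 7, and STC2 without 7, 8 or 12. STC2 was 0.54 without library 12 and was not called on the TMM scale (adjusted p = 0.211). PDGFB, the platelet-derived growth factor B chain, was the 1 gene of these lists with an interaction on the ERCC scale (3.53 ± 0.94, adjusted p = 0.0376), and that call was lost without any one of 8 libraries (2 to 7, 9 or 10). It had 9, 18 and 34 counts in growing wild type and 1, 5 and 0 in 0.1% serum, against 81, 98 and 131 and 160, 200 and 132 in ΔLEO1 cells.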

How the data were processed

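The deposited gene and ERCC tables held raw counts per library. Per the submitters' processing notes and the study's methods, the authors demultiplexed reads with bcl2fastq 2.20.0.422, aligned them with STAR 2.7.10a to GRCh38 with the ERCC sequences and made the counts in annotated exons with featureCounts 1.5.1. The STAR version is that of the processing notes, and the study's methods name a different one. The strand setting, the treatment of multi-mapping reads and the annotation release are not given in the sources used here. Gene symbols were matched for 60401 of 60671 identifiers, and positions and exon lengths for TPM from GENCODE v29 (58453 identifiers). Groups were taken from the sample titles.

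The test was edgeR 4.0.16 (R 4.3.3), a negative binomial fit over all 12 libraries with two-sided likelihood ratio tests, for genes above 1 CPM in at least 3 libraries, with Benjamini-Hochberg adjustment over all tested genes. The effective library size was the ERCC total times the TMM factor of the ERCC transcripts. It was repeated with TMM factors of the genes, the quasi-likelihood test and DESeq2 1.42.0, and the script was tested on simulated data. Adjusted p-values in the text come from the edgeR likelihood ratio test on the scale named. Libraries held 26240632 to 45315560 gene counts.

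The members and all gene lists were chosen with earlier results of these data known. Every member is named. Of each further list, up to 3 called genes per comparison and direction with the largest change from the median gene are named. Overlap with other genes was measured as the share of 58-base stretches, the read length, also found in another gene's annotated transcripts.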

Additional observations from a re-analysis of the deposited data

Results flagged for a closer look

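For 12 members the response to low serum differed between the genotypes by the likelihood ratio test of the interaction on the TMM scale of the genes, always with the higher (log2) change in ΔLEO1 cells. Among glycolytic genes the difference was 0.64 for HK1, 1.34 for HK2, 0.73 for GPI, 0.85 for PFKL, 0.80 for GAPDH and 0.98 for PGK1. For the PFK-2 genes it was 1.02 (PFKFB3) and 1.35 (PFKFB4). For the hypoxia-induced genes and EPAS1 it was 1.26 (BNIP3), 1.22 (NDRG1), 2.05 (CA12) and 1.01 (EPAS1). None of these 12 passed on the ERCC scale, where the adjusted p was above the threshold for every member, and the quasi-likelihood test on the TMM scale called CA12, NDRG1, PFKFB3 and HK2. For CA12 every low-serum wild-type library was below, and every low-serum ΔLEO1 library above, the growing libraries of its genotype in CPM, from 10 to 37 counts in ΔLEO1.

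Outside the members, PDGFB differed between the genotypes on the ERCC scale by 3.53 ± 0.94, adjusted p = 0.0376. The call was lost when any one of 8 libraries was left out, where the value ranged down to 2.78 (without library 9), and it rested on 0 to 34 counts per wild-type library.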

How the results depend on the processing

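No paired analysis was possible because the libraries are numbered 1 to 12 and no groups share a number. A fit on the ERCC scale with a term for the highest-numbered libraries kept 31 of the 33 serum calls in wild type. It kept 28 of the 31 in ΔLEO1, and all calls of ΔLEO1 against wild type in either medium. With TMM factors of the genes in place of the ERCC scaling, and with DESeq2 size factors of the genes, the member counts became 2 higher for the wild-type serum comparison (0 on the ERCC scale), 17 lower and 5 higher in ΔLEO1 (30 and 1), 12 lower and 4 higher for ΔLEO1 against wild type in 10% serum (2 and 1), and 15 higher in 0.1% serum (2). The interaction gave 12 higher with TMM and 11 with DESeq2 size factors (0).

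The following alternatives were chosen after seeing the data. TMM with the quasi-likelihood test gave 3 higher in wild type (15.5% of all tested genes called). In ΔLEO1 it gave 13 lower and 4 higher (12.1% and 15.5%), and in 10% serum 12 lower and 4 higher (21.4% and 17.9%). In 0.1% serum it gave 14 higher (15.1%), and for the interaction 4 higher (1.55%). TMM without the highest-numbered libraries gave, in the same order, 4 higher (27.9%), 7 higher (29.2%), and 16 lower and 9 higher (32.6% and 30.9%). In 0.1% serum it gave 8 lower and 22 higher (29.8% and 31.1%), and for the interaction 1 lower and 24 higher (9.99% and 17.5%).

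Within the ERCC scaling, members higher in ΔLEO1 with low serum went from 1 to 0 under the quasi-likelihood test, with 6 libraries only, without the highest-numbered libraries and with the lowest-numbered libraries summed. Those higher in ΔLEO1 in 0.1% serum went from 2 to 1 with 6 libraries, without the highest-numbered libraries and with the summed libraries, and those higher in 10% serum from 1 to 2 with 6 libraries. Summing left 21 lower in wild type and 3 lower in ΔLEO1. Shares of all tested genes called were not computed for the 6-library, summed, leave-one-out or DESeq2 size factor fits.

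With each library left out, ERCC counts ranged from 21 to 33 lower and 0 to 0 higher in wild type, 15 to 33 lower and 0 to 1 higher in ΔLEO1, 2 to 3 lower and 0 to 1 higher in 10% serum, 2 to 2 lower and 1 to 7 higher in 0.1% serum, and 0 to 1 lower for the interaction. TMM counts ranged from 23 to 28 lower and 2 to 4 higher in wild type (4 without library 12), 10 to 21 lower and 4 to 5 higher in ΔLEO1, 8 to 15 lower and 4 to 5 higher in 10% serum, 3 to 4 lower and 10 to 21 higher in 0.1% serum, and 5 to 21 higher for the interaction.

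In ΔLEO1 with low serum, BNIP3L changed sign. It went from -1.01 on the ERCC scale to 0.14 with TMM, DESeq2 size factors or the TMM quasi-likelihood test. On the TMM scale without the highest-numbered libraries it was 0.22 and called higher (likelihood ratio test, adjusted p = 0.00180). Without library 12 it was 0.28 on the TMM scale and -1.32 on the ERCC scale. With 1 library left out, over both scales, EGLN1 ranged from -1.65 to 0.062 and SLC2A1 from -1.65 to 0.048, both highest on the TMM scale without library 11, and SLC16A1 from -1.58 to 0.017, highest on the TMM scale without library 12. The causes were not tested beyond the choice of scale. Subtracting the median of all tested genes gives changes close to the TMM values. EGLN3, CA9, CA12 and ANKRD37 are limited by depth.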
